A study of Mus musculus with 7 samples.

Results

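The IL-6 family of cytokines, its receptors and the feedback on STAT3 were described here through 10 genes: the ligands Il6, Il11, Lif and Osm, the receptor chains Il6ra, Osmr and Il6st, the transcription factor Stat3, and its targets Socs3 and Cebpd. The genes were chosen by name for their role in the pathway, with earlier results of these data known. All 10 are rows of a table of 55423 features. RNA of whole mouse skin tumours, labelled as cutaneous squamous cell carcinoma, was sequenced after removal of ribosomal RNA. In both groups, Cre recombinase driven by the promoter of involucrin (Ivl), a gene of differentiating keratinocytes, was activated with tamoxifen on the skin. The mice had a C57BL/6J background. The labels give their age as 7 to 10 weeks, while the methods give another range for the age at induction. Ivl:BRAFV600E tumours (BRAF tumours below) carried the activated BRAF allele. Ivl:BRAFV600E-SOX2LSL tumours (BRAF-SOX2 tumours) carried it as well, together with a SOX2 transgene with an eGFP reporter at the Rosa26 locus. Of the 3 BRAF tumours, 2 also carried a red fluorescent reporter, tdRFP. The labels list 4 BRAF and 3 BRAF-SOX2 tumours, and 3 of each could be tied to a column of counts. Every tumour came from its own mouse, and all grew to the clinical endpoint. Each of the BRAF-SOX2 tumours was collected sooner after induction than each of the BRAF tumours, so genotype and time since induction cannot be told apart. Tamoxifen was put on the back skin, and the body site of each sequenced tumour is not given in the sources used here. The comparison asks which of these genes differed when SOX2 was added to BRAFV600E in cells of the involucrin population.

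Ligands of the IL-6 family bind a private receptor chain and then the shared chain gp130, the product of Il6st. Kinases of the JAK family on the receptor phosphorylate STAT3, which enters the nucleus and binds DNA. STAT3 induces Socs3, whose protein docks on gp130 and shuts the JAK kinases off, which makes Socs3 both a readout and a brake of the pathway. Cebpd, which encodes the transcription factor C/EBP-delta, is another classical target and takes part in the acute-phase response. In skin, STAT3 is known for its part in wound repair, psoriasis and squamous carcinogenesis, and oncostatin M, the product of Osm, is known as a strong activator of keratinocytes.

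The 6 libraries held 23565432 to 31152826 counted reads. Levels are given as CPM, a gene's reads scaled to the reads counted in its library, after TMM scaling, which evens out differences in library composition. Tumours are numbered in the order of the table, so that tumour 1 is not the first replicate of the labels. BRAF tumours 1 and 2 and the last of the BRAF-SOX2 tumours came from females, and the others from males. Sex was thus not balanced between the genotypes. Sox2 lay between 0.238 and 0.716 CPM in the BRAF tumours and between 155 and 182 CPM in the BRAF-SOX2 tumours, and EGFP had no read in any BRAF tumour. The keratinocyte markers Krt5 and Trp63 were high in every tumour (at least 2371 CPM and 261 CPM). Of 10 keratinocyte markers, only these 2 had a higher mean in the BRAF-SOX2 tumours. The groups did not overlap for 5 of the 10, each lower in the BRAF-SOX2 tumours, against 16% of all genes. The summed level of 10 keratinocyte markers was 113898 to 182494 CPM in the BRAF tumours and 21961 to 76346 CPM in the BRAF-SOX2 tumours, with the lowest value in BRAF-SOX2 tumour 1. That tumour also had the highest sum of 10 macrophage and monocyte markers (437 CPM, against 183 and 222 CPM in the other BRAF-SOX2 tumours and 64.8 to 112 CPM in the BRAF tumours). BRAF tumour 2 had the lowest sum of 10 fibroblast markers (806 CPM, against 2192 and 5177 CPM in the other BRAF tumours and 4074 to 8559 CPM in the BRAF-SOX2 tumours). In whole tumours, fewer cells of a type and less RNA per cell cannot be told apart.

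The DNA around the start of a gene can hold sites that STAT3 and its partners read. RefSeq promoters on GRCm38.p6 were found for 8 of the 10 genes, in 9 windows of 250 bases before a RefSeq start (2 for Il11); Osm and Cebpd were not matched. Starts differ between annotations, and 3 of these windows, that of Socs3, that of Osmr and the second of Il11, lie wholly inside the gene as GENCODE M21 annotates it, since their RefSeq starts are 681, 656 and 4718 bases inside the GENCODE gene. Distances below are counted from the RefSeq start. The STAT motif TTCNNNGAA was searched on both strands, and of the 9 windows only that of Socs3 held it, against 7.02% of all 32851 windows of this length. The match began 154 bases before the RefSeq start of Socs3. The stretch of 150 bases from 250 to 101 bases before that start, chr11:117969467-117969616 on the minus strand, lies inside the GENCODE gene and outside all of its annotated exons. It is shown because Socs3 is the feedback gene of the pathway and one of the 2 genes that passed the test below. The STAT match is in capitals.
Socs3: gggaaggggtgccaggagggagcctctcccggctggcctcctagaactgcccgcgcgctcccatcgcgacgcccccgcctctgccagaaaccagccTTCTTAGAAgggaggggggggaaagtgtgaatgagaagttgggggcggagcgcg

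The window of Il6 is shown beside it, since it held matches to 3 motifs of factors that act with STAT3 and since Il6 gives the family its name. It lies at chr5:30012864-30013113 on the plus strand. Capitals mark, from left to right, the AP-1 motif TGANTCA, the C/EBP motif TTGCNNAA on the reverse strand, and matches to a loose NF-kB motif (3 G, any 5 bases and 2 C) on either strand. Here the RefSeq and GENCODE starts are the same base. The C/EBP match began 128 bases upstream and overlapped a match to the SOX motif CATTGT that began 130 bases upstream.
Il6: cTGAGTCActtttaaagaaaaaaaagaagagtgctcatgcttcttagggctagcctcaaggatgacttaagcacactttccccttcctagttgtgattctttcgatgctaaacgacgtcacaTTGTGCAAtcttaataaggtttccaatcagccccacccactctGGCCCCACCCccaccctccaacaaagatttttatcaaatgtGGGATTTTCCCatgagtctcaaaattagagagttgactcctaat

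The C/EBP motif occurred in 9.56% of all windows and, among these genes, in that of Il6 alone, as did the SOX motif (10.7% of all windows). AP-1 was found in the windows of Il6 and Lif and in the second window of Il11 (6.75% of all windows). The loose NF-kB motif was found in windows of 6 of the 8 genes (45.8% of all windows), 2 of which, those of Socs3 and Osmr, are the ones inside the GENCODE gene. A match describes letters only and does not show that a factor bound.

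All 10 genes passed the filter of at least 5 reads in at least 1 tumour and entered the test, edgeR's quasi-likelihood fit, with p-values adjusted by Benjamini-Hochberg over 24433 genes. Cebpd and Socs3 rose in the BRAF-SOX2 tumours (adjusted p = 0.00708 and 0.0283), and none of the 10 fell. Over all genes, 2.39% passed the test as higher and 1.51% as lower. Receptors and Stat3 were also higher in each BRAF-SOX2 tumour than in each BRAF tumour without passing the adjusted threshold, whereas the 4 ligands overlapped between the groups. In all, 6 of the 10 genes had groups that did not overlap, each higher in the BRAF-SOX2 tumours, against 18.2% of all genes. The median log2 fold change of the 10 genes was 0.79, against 0.04 over all genes. At an unadjusted p below 0.05, 5 of the 10 genes passed, against 25.7% of all genes. Because the genes were chosen with earlier results of these data known, these shares are descriptions and not an independent test.

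**Figure D1:**
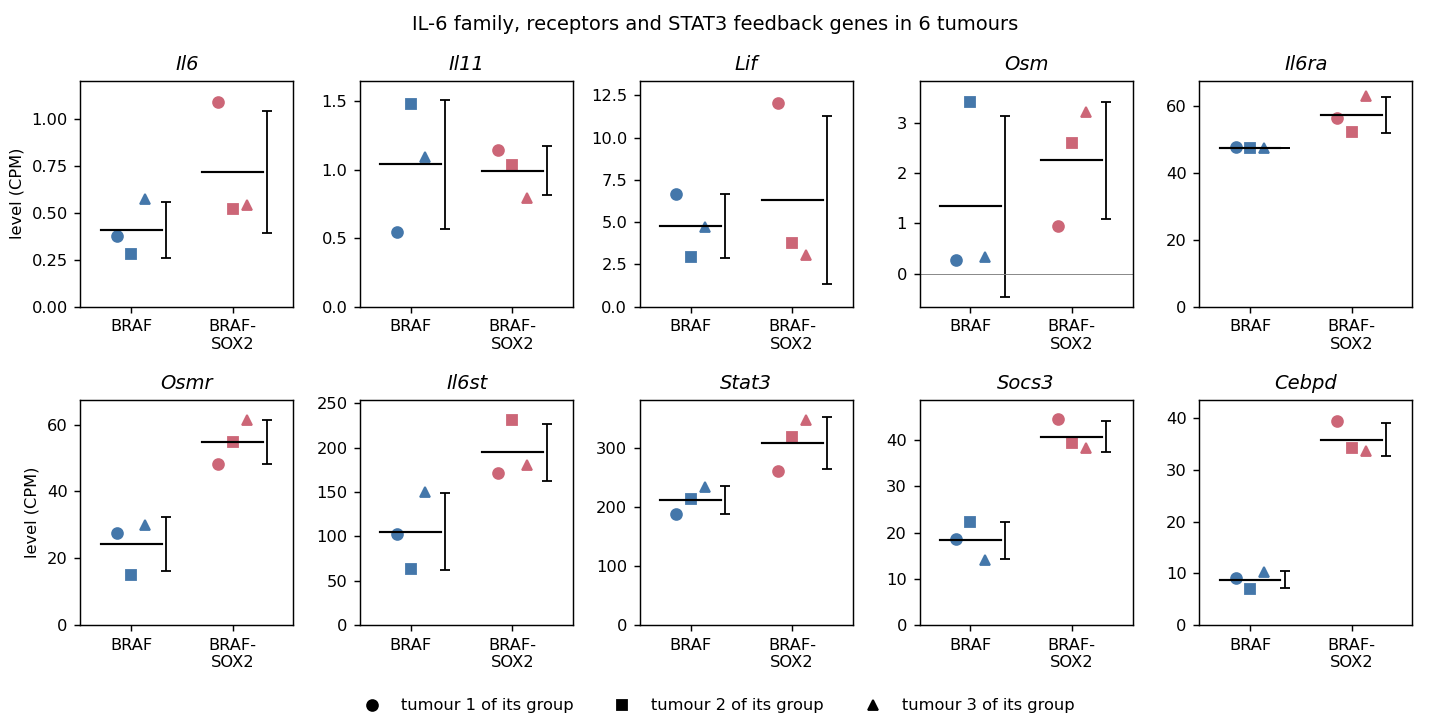
Level in CPM (vertical axes, each starting at or below 0) of the 10 genes in 3 BRAF and 3 BRAF-SOX2 tumours. Points are tumours, the horizontal line is the mean and the bar beside it spans 1 SD on either side. Il6ra, Osmr, Il6st, Stat3, Socs3 and Cebpd lay higher in each BRAF-SOX2 tumour than in each BRAF tumour, and the 4 ligands overlapped.

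The ligands were scarce in both groups. Il6, the founding member of the family and a cytokine of myeloid cells, fibroblasts and keratinocytes, measured 0.375, 0.277 and 0.570 CPM in BRAF tumours 1 to 3 and 1.09, 0.518 and 0.542 CPM in BRAF-SOX2 tumours 1 to 3. These levels rest on 6 to 39 reads per library. BRAF-SOX2 tumour 1 stood above all other tumours, and the other values of the 2 groups overlapped. The log2 fold change was 0.82 ± 0.50 (SE, n = 3 per group, edgeR adjusted p = 0.337), a fold of 1.77 with a 95% interval from 0.786 to 3.97. Without BRAF-SOX2 tumour 1 the log2 fold change was 0.38.

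Il11, which acts on stromal and epithelial cells through its own receptor chain, measured 0.546, 1.48 and 1.09 CPM in the BRAF tumours and 1.15, 1.04 and 0.795 CPM in the BRAF-SOX2 tumours. The BRAF-SOX2 values lay inside the range of the BRAF tumours (edgeR log2 fold change -0.05, adjusted p = 0.955). The 95% interval of the fold, 0.475 to 1.96, leaves room for a change in either direction.

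Lif, the leukaemia inhibitory factor, had the highest mean level per kilobase of the 4 ligands. It measured 6.68, 2.91 and 4.70 CPM in the BRAF tumours and 12.1, 3.79 and 3.07 CPM in the BRAF-SOX2 tumours. Its mean was higher in the BRAF-SOX2 group through tumour 1 only (edgeR log2 fold change 0.40, adjusted p = 0.689), and without that tumour the log2 fold change was -0.48.

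Osm, made chiefly by macrophages, neutrophils and T cells, measured 0.273, 3.42 and 0.333 CPM in the BRAF tumours and 0.951, 2.59 and 3.21 CPM in the BRAF-SOX2 tumours. BRAF tumour 2 held the highest level of all 6, about as much as BRAF-SOX2 tumour 3, and the other BRAF tumours the lowest. The groups overlapped and the fold was poorly bounded (1.69, 95% interval 0.349 to 8.16, edgeR adjusted p = 0.658). Without BRAF tumour 2 the log2 fold change was 2.88, still short of the adjusted threshold. The same tumour also had the highest Il1b of the BRAF group (36.6 CPM, against 3.24 and 6.70 CPM) and the highest Tnf of all 6 (6.0 CPM), while its macrophage marker sum, 73.7 CPM, lay between those of the other BRAF tumours.

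The receptor chains were higher in each BRAF-SOX2 tumour than in each BRAF tumour, and none passed the adjusted threshold in edgeR. Osmr, the private chain of the oncostatin M receptor, measured 27.4, 14.9 and 30.1 CPM in the BRAF tumours and 48.1, 54.9 and 61.3 CPM in the BRAF-SOX2 tumours. The lowest BRAF-SOX2 tumour was 1.6 times the highest BRAF tumour. The log2 fold change was 1.18 ± 0.26 (SE, n = 3 per group), a fold of 2.27 with a 95% interval from 1.48 to 3.48, and it just missed the threshold (edgeR adjusted p = 0.0558). DESeq2 called it (adjusted p = 0.00181), where 18.2% of the genes with an adjusted p were called.

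Il6st, which encodes the shared signalling chain gp130, measured 102, 63.7 and 150 CPM in the BRAF tumours and 172, 232 and 181 CPM in the BRAF-SOX2 tumours. The groups did not overlap, but the BRAF tumours differed from each other by more than the gap between the groups (log2 fold change 0.88 ± 0.30 SE, n = 3 per group, edgeR adjusted p = 0.129). BRAF tumour 2, the one with the lowest fibroblast marker sum, had the lowest Osmr and the lowest Il6st of all 6. The part of the cell make-up in these differences was not tested.

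Il6ra, the chain that makes a cell responsive to IL-6 itself, was almost level among the BRAF tumours at 47.6, 47.4 and 47.4 CPM. It measured 56.6, 52.4 and 62.9 CPM in the BRAF-SOX2 tumours. The difference was the smallest of the 3 receptor chains (fold 1.21, 95% interval 0.997 to 1.46, edgeR adjusted p = 0.199). Exons of Il6ra overlap those of the antisense gene Gm42809 over 242 bases, and the sources used here do not say if strand was used in counting.

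Stat3, the transcription factor that the receptors activate, had the highest mean level per kilobase of the 10 genes. It measured 188, 213 and 234 CPM in the BRAF tumours and 260, 318 and 346 CPM in the BRAF-SOX2 tumours. Each BRAF-SOX2 tumour lay above each BRAF tumour, with a log2 fold change of 0.54 ± 0.16 (SE, n = 3 per group) that did not pass the threshold (edgeR adjusted p = 0.0973). The fold was 1.46, with a 95% interval from 1.12 to 1.89. These are transcript levels, and activation of STAT3 by phosphorylation is not measured by them. The last exon of Stat3 shares 72 bases with Stat5a on the other strand.

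Socs3, the feedback inhibitor, measured 18.5, 22.3 and 14.2 CPM in the BRAF tumours and 44.5, 39.4 and 38.3 CPM in the BRAF-SOX2 tumours. The lowest BRAF-SOX2 tumour was 1.72 times the highest BRAF tumour, and the 3 BRAF-SOX2 tumours lay close together. Socs3 rose by 1.15 ± 0.19 on the log2 scale (SE, n = 3 per group, edgeR adjusted p = 0.0283), a fold of 2.22 with a 95% interval from 1.64 to 3.02. With sex as a covariate the log2 fold change was 1.24 and the call was lost (adjusted p = 0.0651). It was also lost without any of 5 of the 6 tumours, each left out in turn (adjusted p 0.0554 to 0.129), and was kept without BRAF-SOX2 tumour 1 (adjusted p = 0.0225).

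Cebpd showed the widest separation of the 10 genes. It measured 9.17, 6.98 and 10.2 CPM in the BRAF tumours and 39.5, 34.3 and 33.7 CPM in the BRAF-SOX2 tumours, so that the lowest BRAF-SOX2 tumour was 3.31 times the highest BRAF tumour. Cebpd rose by 2.03 ± 0.18 on the log2 scale (SE, n = 3 per group, edgeR adjusted p = 0.00708), a fold of 4.08 with a 95% interval from 3.04 to 5.49. The call was lost only without BRAF tumour 1, where the fold hardly moved (log2 fold change 2.06, adjusted p = 0.0726). Cebpd lies at chr16:15887286-15891031 on the plus strand, and 562 bases of its exons overlap exons of Spidr on the minus strand, so the reads of the 2 genes may not be fully separated.

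**Figure D2:**
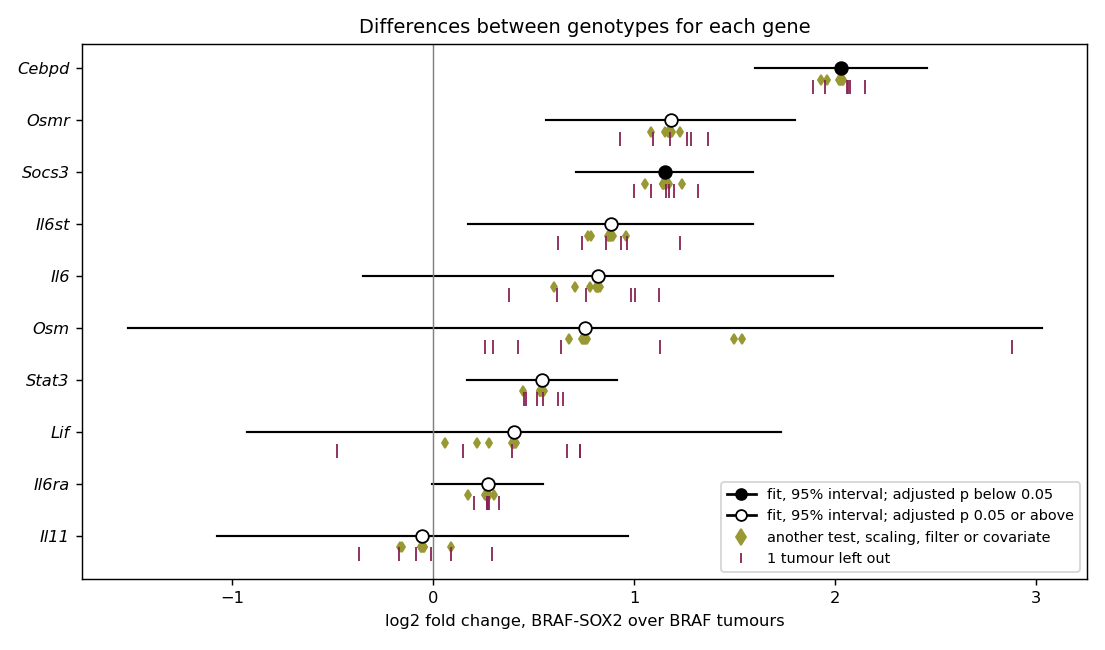
Log2 fold change of BRAF-SOX2 over BRAF tumours (horizontal axis) for the 10 genes. Circles with lines are the edgeR estimate with its 95% interval, filled where the adjusted p is below 0.05; diamonds are other tests, scalings, filters or covariates, and ticks are fits with 1 tumour left out. The values of Cebpd stayed between 1.89 and 2.15 and those of Socs3 between 1.0 and 1.32, while those of Il11 and Lif fell on both sides of 0.

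Levels were also compared between genes per kilobase of exon, since CPM grows with the length of a transcript. In the BRAF tumours the order of the mean level, in CPM per kilobase, was Stat3 (22.2), Il6st (9.5), Socs3 (6.33), Il6ra (5.5), Cebpd (2.34), Osmr (1.99), Lif (1.10), Osm (0.590), Il11 (0.499) and Il6 (0.168). Neighbours in that order overlapped between tumours except at 3 steps, from Stat3 to Il6st, from Il6ra to Cebpd and from Il11 to Il6. In the BRAF-SOX2 tumours Cebpd moved ahead of Il6ra (9.57 and 6.63 CPM per kilobase), and every step from Stat3 down to Lif was free of overlap. Lif, Osm, Il11 and Il6 closed the order in both groups, and in the BRAF-SOX2 tumours each of these overlapped its neighbour. Osm and Lif are themselves neighbours in the genome, 16531 bases apart on chromosome 11, but their highest tumours differed: BRAF tumour 2 for Osm and BRAF-SOX2 tumour 1 for Lif.

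The rest of the pathway was read from 10 lists. Beside some of the 10 genes above, they hold 108 further genes, of which 99 were tested. In the BRAF-SOX2 tumours 11 of these 99 rose and 1 fell, against 2.39% and 1.51% of all genes. The median log2 fold change of the 99 was 0.76 (0.65 with genes at 3 or fewer reads in every BRAF tumour set to their bound). The other 5 tested ligands of gp130 held no call by edgeR or DESeq2, with 1 at an unadjusted p below 0.05. Clcf1, a partner of the CNTF receptor, was the only one with groups apart in the downward direction, at 30.0 to 37.3 CPM in the BRAF tumours and 19.5 to 28.8 CPM in the BRAF-SOX2 tumours (edgeR adjusted p = 0.174). Ctf1, which encodes cardiotrophin, was the only one with groups apart upward. It lay at 0.819 to 1.28 CPM in the BRAF tumours and 1.48 to 1.57 CPM in the BRAF-SOX2 tumours (edgeR adjusted p = 0.271). Ctf2, Il27 and Il31 did not pass the filter.

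All 8 receptor chains of the gp130 family had a positive log2 fold change, against 52.8% of all genes, and 7 had groups that did not overlap (18.2% of all genes), yet none passed the adjusted threshold in edgeR. Their median log2 fold change was 1.13, with 5 of 8 at an unadjusted p below 0.05 and 4 called by DESeq2, against 25.7% and 18.2% of all genes. Without Il6ra, Osmr and Il6st, 5 of 5 had a positive log2 fold change, 4 had groups apart upward and the median was 1.44. Lifr, which pairs with gp130 for LIF and for oncostatin M, measured 15.2, 4.39 and 17.0 CPM in the BRAF tumours and 39.5, 30.8 and 29.4 CPM in the BRAF-SOX2 tumours (log2 fold change 1.44, edgeR adjusted p = 0.111). As with Osmr and Il6st, BRAF tumour 2 was the lowest. Cntfr, the chain for ciliary neurotrophic factor, lay between 0.185 and 2.71 CPM in the BRAF tumours and between 4.50 and 7.08 CPM in the BRAF-SOX2 tumours (edgeR adjusted p = 0.136). Il31ra, which forms the itch receptor with OSMR, had 1, 1 and 3 reads in the BRAF tumours and 22, 12 and 17 reads in the BRAF-SOX2 tumours (edgeR adjusted p = 0.0584). Il11ra1 and Il27ra were the remaining chains, with log2 fold changes of 1.07 and 1.0.

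Of the other cytokines that act through STAT3, Il19 rose and no other of the 7 tested did. Il19, an IL-10 family cytokine of the epidermis, measured 0.546, 0.139 and 0.713 CPM in the BRAF tumours and 56.0, 180 and 77.2 CPM in the BRAF-SOX2 tumours. This is a log2 fold change of 7.78 ± 0.69 (SE, n = 3 per group, edgeR adjusted p = 0.00708), and per kilobase of exon the mean level of Il19 in the BRAF-SOX2 tumours was 90.8 CPM per kilobase, against 1.45 for Lif. Il24, of the same subfamily, overlapped between the groups (edgeR log2 fold change 1.37, adjusted p = 0.226). Il23a, a subunit of IL-23, did not overlap by a narrow margin, with 0.523 to 1.19 CPM in the BRAF tumours and 1.23 to 9.85 CPM in the BRAF-SOX2 tumours (edgeR adjusted p = 0.130). Among the 10 receptors for these cytokines, Il20ra rose and none fell, against 2.39% and 1.51% of all genes. Groups were apart upward for 3 and downward for 3, against 18.2% and 16% of all genes. Il20ra encodes a chain of the receptor that IL-19 shares with IL-20 and IL-24. It had 1, 0 and 3 reads in the BRAF tumours and 103, 382 and 227 reads in the BRAF-SOX2 tumours (edgeR adjusted p = 0.0186). Il20rb, the partner chain, was present in all tumours, at 52.8 to 67.9 CPM in the BRAF tumours and 14.4, 31.7 and 52.1 CPM in the BRAF-SOX2 tumours (edgeR log2 fold change -0.92, adjusted p = 0.211). The other two with groups apart downward were Il22ra1, a chain of the IL-22 receptor, at 47.3 to 49.5 CPM and 11.4 to 39.1 CPM (edgeR adjusted p = 0.270), and Il23r, a chain of the IL-23 receptor, at 1.52 to 2.33 CPM and 0.583 to 1.48 CPM (edgeR adjusted p = 0.184). Csf3r, the receptor for the neutrophil growth factor and itself a neutrophil marker, measured 3.10 to 10.1 CPM and 21.2 to 26.1 CPM (edgeR adjusted p = 0.0713).

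Among the kinases, Jak2 rose. It measured 32.2, 31.9 and 35.0 CPM in the BRAF tumours and 55.4, 70.1 and 56.6 CPM in the BRAF-SOX2 tumours (log2 fold change 0.88 ± 0.14 SE, n = 3 per group, edgeR adjusted p = 0.0267). The call of Jak2 was lost with sex as a covariate (edgeR adjusted p = 0.0707) and without any 1 of 5 of the 6 tumours (0.0524 to 0.129). Jak1, a main kinase of gp130, had 25.1 to 34.2 CPM per kilobase over the 6 tumours and overlapped between the groups, with 182 to 224 CPM and 196 to 247 CPM. Tyk2 lay at 18.7 to 21.5 CPM and 25.8 to 29.4 CPM (edgeR adjusted p = 0.0860). Jak3, a kinase of blood cells, stood out only in BRAF-SOX2 tumour 1 (24.5 CPM), the tumour with the highest macrophage marker sum.

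Of the 7 STAT factors, Stat2 rose, at 4.74, 4.57 and 6.51 CPM in the BRAF tumours and 16, 13.4 and 11.6 CPM in the BRAF-SOX2 tumours (edgeR log2 fold change 1.37, adjusted p = 0.0278). STAT2 serves the interferon response and is not a main effector of IL-6. Stat5a lay at 8.42 to 13.5 CPM and 18.4 to 20.8 CPM (edgeR adjusted p = 0.0637), beside Stat5b at 21.2 to 26.2 CPM and 28.2 to 29.5 CPM. Stat6, which serves IL-4 and IL-13, was the only STAT factor with a lower level in each BRAF-SOX2 tumour, at 157 to 164 CPM and 103 to 138 CPM (edgeR adjusted p = 0.165). Stat4 was below 0.6 CPM in every tumour.

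Of 18 feedback and inhibitor genes, all tested, Socs3, Socs2 and Ptprt rose and none fell, against 2.39% and 1.51% of all genes. The median log2 fold change was -0.08, and -0.09 without Socs3. Socs2, an inhibitor of growth hormone signalling, measured 2.97, 1.48 and 4.70 CPM in the BRAF tumours and 57.6, 17.5 and 22.4 CPM in the BRAF-SOX2 tumours (edgeR log2 fold change 3.41, adjusted p = 0.0319). Without BRAF-SOX2 tumour 1 its log2 fold change was 2.71. Ptprt, a receptor phosphatase known to remove phosphate from STAT3, went from 0.0462 to 0.238 CPM in the BRAF tumours to 1.76 to 10.4 CPM in the BRAF-SOX2 tumours (edgeR adjusted p = 0.0269). The calls of Socs2 and Ptprt each held in 8 of 15 alternatives. They were lost with limma's voom (adjusted p = 0.0510 and 0.0993), with sex as a covariate (edgeR adjusted p = 0.0625 and 0.0564) and without any 1 of 5 of the 6 tumours. Ptpn6, a phosphatase chiefly of blood cells, lay at 5.87 to 7.55 CPM and 10.8 to 22.4 CPM (edgeR adjusted p = 0.0713).

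Among 25 genes listed as targets of STAT3, Socs3, Cebpd, Timp1 and Il4ra rose, Pim3 fell, and 20 did not pass. Over all genes, 2.39% rose and 1.51% fell. Timp1, an inhibitor of matrix proteases, measured 2.46, 1.52 and 4.75 CPM in the BRAF tumours and 26.0, 14.4 and 10.3 CPM in the BRAF-SOX2 tumours (edgeR log2 fold change 2.54, adjusted p = 0.0434). Il4ra, the receptor chain for IL-4 and IL-13, lay at 99.0 to 155 CPM and 258 to 402 CPM (edgeR adjusted p = 0.0439). Pim3, a survival kinase, fell from 73.7, 82.0 and 65.1 CPM to 34.1, 38.5 and 43.3 CPM (edgeR log2 fold change -0.93, adjusted p = 0.0269). Its relative Pim1 had the same order, with 198 to 281 CPM and 81.4 to 147 CPM, without passing the test (edgeR adjusted p = 0.100). The median log2 fold change of the list was 0.43. Groups were apart upward for 14 of the 25 genes and downward for 3, against 18.2% and 16% of all genes tested. Without Socs3, Cebpd, Stat3 and Osmr, 10 of 21 were apart upward and 3 downward, and the median was 0.33. Of the genes with groups apart upward, Muc1, a mucin of epithelial surfaces, measured 0.171 to 0.713 CPM and 1.55 to 3.14 CPM without passing (edgeR adjusted p = 0.0560). Cebpb, the sister gene of Cebpd, was lower in each BRAF-SOX2 tumour (57.8 to 104 CPM, against 128 to 154 CPM) and did not pass (edgeR adjusted p = 0.132). Cebpb lies outside the rule by which genes were named and was added after its values were seen.

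Of 15 tested acute-phase genes, Cp rose and none fell, against 2.39% and 1.51% of all genes. Cp, which encodes the copper carrier ceruloplasmin, measured 3.82, 3.65 and 6.41 CPM in the BRAF tumours and 26.4, 14.8 and 13.7 CPM in the BRAF-SOX2 tumours (edgeR log2 fold change 1.98, adjusted p = 0.0324). The list had a median log2 fold change of 1.88 (1.74 with floor genes at their bound), with wide spread among the BRAF tumours. Saa3, a serum amyloid of inflamed tissue, was at 0.102, 0.185 and 7.65 CPM in the BRAF tumours and at 48.1, 38.4 and 33.4 CPM in the BRAF-SOX2 tumours (edgeR adjusted p = 0.120). Hp and Lrg1 likewise had groups apart without passing (edgeR adjusted p = 0.0846 and 0.0920). Of 10 genes known to induce IL-6, Il1a and Nfkb1 rose. Il1a, an alarm cytokine of keratinocytes, measured 16.3, 20.1 and 12.5 CPM in the BRAF tumours and 53.3, 66.1 and 52.6 CPM in the BRAF-SOX2 tumours (edgeR log2 fold change 1.81, adjusted p = 0.0129). Nfkb1, a subunit of NF-kB, lay at 80.0 to 97.4 CPM and 145 to 155 CPM (edgeR adjusted p = 0.0281). Il1b overlapped between the groups through BRAF tumour 2. Of the 15 alternatives, 14 kept the calls of Il19 and Il1a, 12 that of Il20ra, 11 that of Stat2, 10 that of Pim3, 9 those of Jak2, Timp1, Cp and Nfkb1, and 8 that of Il4ra. Without BRAF tumour 1 each of these calls was lost (edgeR adjusted p 0.0753 to 0.176). With each of the 6 tumours left out in turn, the calls of Il19 and Il1a held 5 times, that of Il20ra 4 times, those of Stat2 and Pim3 2 times, and those of Jak2, Timp1, Cp, Nfkb1 and Il4ra 1 time, without BRAF-SOX2 tumour 1.

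**Figure D3:**
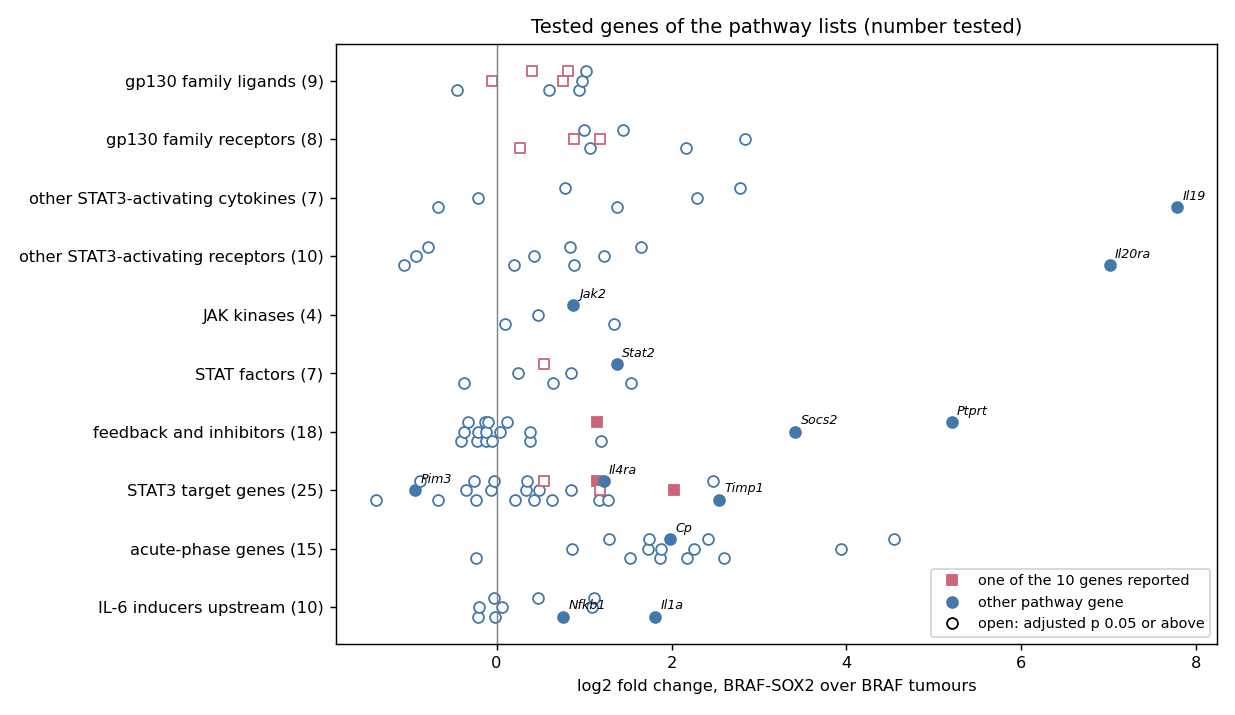
Log2 fold change of BRAF-SOX2 over BRAF tumours (horizontal axis) for the tested genes of 10 pathway lists, with the number tested in brackets. Squares are genes among the 10 reported, circles are other genes, and filled points passed the adjusted threshold. Il20ra, Il31ra, Lep, Orm2 and Reg3g rest on 3 or fewer reads in each BRAF tumour, so their fitted values depend on the prior count. Of the feedback genes, Socs3, Socs2 and Ptprt are filled.

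Markers of other cell types moved with genotype beside these genes. Of 10 macrophage and monocyte markers, Ptprc and Csf1r rose (edgeR adjusted p = 0.0483 for both). Groups did not overlap for 8, each higher in the BRAF-SOX2 tumours, 9 had an unadjusted p below 0.05 and DESeq2 called 7. Over all genes, 2.39% rose in edgeR and 18.2% had groups apart upward, shares that also stand beside the lists below. The call of Ptprc held in 6 and that of Csf1r in 8 of 15 alternatives, and with each of the 6 tumours dropped in turn, either call held 1 time. Csf1r, the receptor that macrophages depend on, measured 13.6, 13.5 and 23.6 CPM in the BRAF tumours and 108, 50.4 and 41.4 CPM in the BRAF-SOX2 tumours. All 6 mast cell markers had groups apart and none passed the adjusted threshold in edgeR (5 at an unadjusted p below 0.05, 4 called by DESeq2), with sums of 0.185 to 5.76 CPM in the BRAF tumours and 25.4 to 28.3 CPM in the BRAF-SOX2 tumours. Of 12 skeletal muscle markers 11 rose, and their sum went from 3.83 to 16.2 CPM to 791, 3093 and 3258 CPM. Ttn and Acta1, which encode titin and skeletal actin, were at most 8.5 and 0.570 CPM in the BRAF tumours and at least 509 and 55.0 CPM in the BRAF-SOX2 tumours. With the muscle markers left out of the scaling, Cebpd and Socs3 kept their calls (edgeR adjusted p = 0.00720 and 0.0287), which does not bear on reads of these genes from muscle cells. No neutrophil, T cell, fibroblast, endothelial or keratinocyte marker passed the adjusted threshold, nor did any marker of adipocytes, melanocytes or Schwann cells. Of 10 neutrophil markers 5 had groups apart, all higher in the BRAF-SOX2 tumours, among them Csf3r, while S100a8 and S100a9, which encode calprotectin, overlapped at 168 to 971 CPM and 174 to 950 CPM in the BRAF-SOX2 tumours and at 175 to 635 CPM and 143 to 552 CPM in the BRAF tumours. The adipocyte sum went from 8.12 to 12.2 CPM in the BRAF tumours to 16.3 to 91.6 CPM in the BRAF-SOX2 tumours, with 3 of 6 markers at an unadjusted p below 0.05. Unadjusted p lay below 0.05 for 5 keratinocyte, 5 neutrophil, 3 fibroblast, 2 T cell and 2 endothelial markers, and DESeq2 called 4, 4, 3, 0 and 1 of these lists. Over all genes the shares were 25.7% and 18.2%, so the T cell and endothelial counts, of 8 markers each, lay at or below those of all genes, and the fibroblast count, of 10 markers, lay little above. By direction, 8 of 8 T cell and 9 of 10 fibroblast markers had a log2 fold change above 0 (medians 0.89 and 1.03), against 52.8% of all genes. For endothelial markers it was 5 of 8 (median 0.05). Krt1, of differentiated keratinocytes, measured 1010 CPM in BRAF-SOX2 tumour 1, 11874 and 13012 CPM in tumours 2 and 3, and 32201 to 45416 CPM in the BRAF tumours (edgeR adjusted p = 0.149). The part of skeletal muscle, macrophages, mast cells, neutrophils, adipocytes, fibroblasts and keratinocyte state in the differences of Socs3, Cebpd and the receptor chains was not tested.

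**Figure D4:**
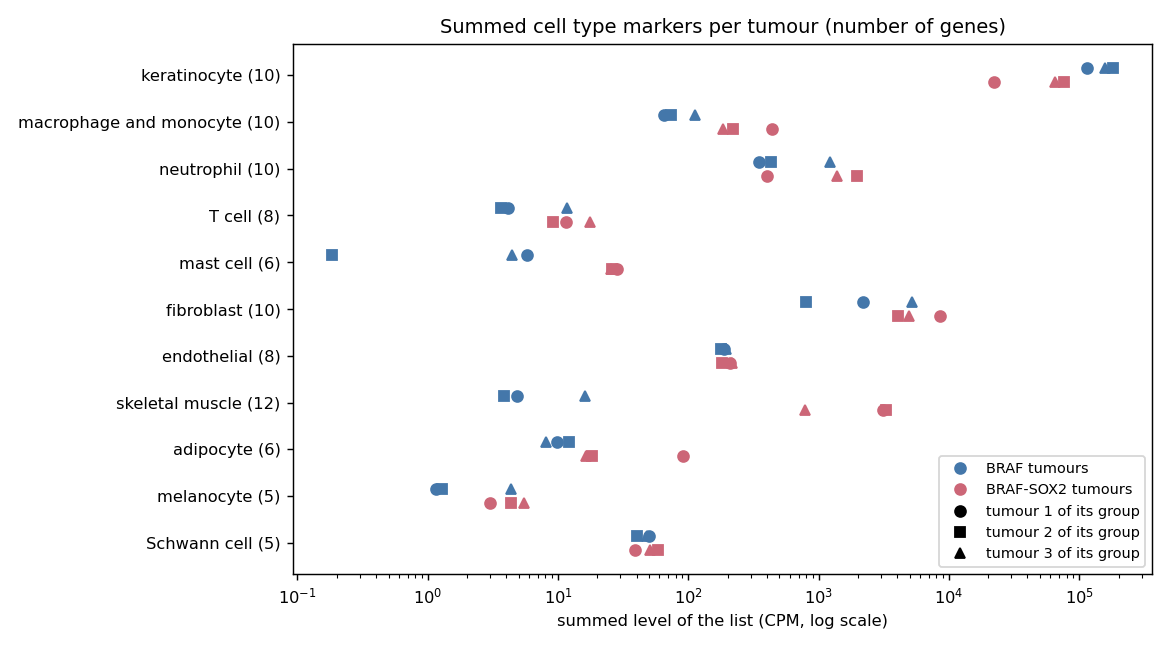
Summed level in CPM (horizontal axis, log scale) of 11 lists of cell type markers in each tumour, with the number of genes in brackets. Colours mark the genotype and shapes the tumour. Macrophage, mast cell, muscle and adipocyte sums were higher in each BRAF-SOX2 tumour, the keratinocyte sum was lower, and the sums of the other lists overlapped.

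The genes with the most similar pattern to 5 of the 10 were found by Pearson's correlation of log2 CPM over the 6 tumours, among 14430 genes with a mean of at least 1 CPM. With so few tumours, high coefficients arise easily, and these are descriptions. The genes most like Cebpd were Ceacam1 (r = 0.9998, 2.54 and 277 CPM on average in the BRAF and BRAF-SOX2 tumours), Fuom and Nfkb1 (both r = 0.997). Those most like Socs3 were Gm48870, S100a6 and Etfbkmt (r = 0.998, 0.996 and 0.994), of which S100a6 also rose (edgeR adjusted p = 0.0361). Those most like Osmr were Tnik, Ahr and Gtf2i (r = 0.998, 0.996 and 0.994), and those most like Stat3 were Trim37, Herpud1 and D17Wsu92e (r = 0.994, 0.994 and 0.992). The genes most like Il6 were Scarf2, Tmem119 and Rcn3 (r = 0.997, 0.996 and 0.992), each higher on average in the BRAF-SOX2 tumours without passing the test (edgeR adjusted p 0.168 to 0.269). Among the 10 genes themselves, Cebpd was most like Osmr (r = 0.928) and Osmr most like Il6st (r = 0.944), over the same 6 tumours and with the difference between the genotypes included.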

How the data were processed

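RNA of 6 whole tumours was analysed, 3 per genotype. The authors trimmed the reads, aligned them to GRCm38 with HISAT2 2.1.0 and counted them per gene with featureCounts (Subread 1.6.3), per the submitters' processing notes and the methods. The deposited table holds raw counts per gene. Columns are named by mouse and were assigned by the study's list of mice. There was 1 column that matched no listed mouse and was not used. Whether strand or reads with several matches were counted is not given in the sources used here. The methods name ComBat-seq for batch correction without saying whether it touched these counts, and the supplement describes the tumours of this comparison as sequenced together in 1 batch.

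A minimum of 5 reads in any 1 tumour was required, and the genes were tested with edgeR 4.0.16 (TMM scaling, glmQLFit and glmQLFTest, R 4.3.3), with Benjamini-Hochberg adjustment over all 24433 genes and a threshold of 0.05. Non-overlap means that each tumour of one genotype lay above each of the other. The floor was 3 counts, 0.0839 to 0.143 CPM, and covers counting error only. A permutation of 3 against 3 tumours cannot go below 0.1. The script was tested on simulated data. Coordinates and exon lengths came from GENCODE M21 (GRCm38). The named genes were the 10 of the pathway, per pathway list up to 4 genes with the smallest p and each STAT, JAK and gp130 receptor, of the marker lists the genes with the highest level (for most lists only sums are given), and the 3 genes most like each of 5 members. Krt5, Trp63, Ptprc, Tnf, Cebpb, Pim1, Il4ra, Muc1, Il20rb, Il22ra1, Orm2 and Reg3g were named outside this rule after their values were seen. The genes and lists were chosen with earlier results of these data known, and the study's own SOX2 signature, drawn from these libraries, includes Il19 and Il20ra. Alternatives were DESeq2 1.42.0, limma 3.58.1 (voom), other scalings and filters, sex as a covariate, and leaving out each tumour.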

Additional observations from a re-analysis of the deposited data

How the results depend on the processing

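Directions of 8 of the 10 genes were the same under all 15 alternatives. Il11 turned to 0.0866 with limma's voom, to 0.29 without BRAF tumour 2 and to 0.0867 without BRAF-SOX2 tumour 3 (range -0.37 to 0.29 with 1 tumour left out), and Lif turned to -0.48 without BRAF-SOX2 tumour 1 (range -0.48 to 0.73). Of the 10 genes, 2 passed in the edgeR fit, 4 with DESeq2 (Cebpd, Socs3, Osmr, Stat3), 3 without the filter on low counts and 1 (Cebpd) with sex as a covariate; with 1 tumour left out, 0 (without BRAF tumour 1) to 4 (without BRAF-SOX2 tumour 1) passed. Of the 99 other pathway genes, 12 passed, 30 with DESeq2, 20 without the filter, 5 with sex as a covariate and 0 to 12 with 1 tumour left out. Over all genes the count was 954, with DESeq2 3653, without the filter 1759, with sex as a covariate 228 and with 1 tumour left out 22 (without BRAF tumour 1) to 1575 (without BRAF-SOX2 tumour 1). Cebpd was called in 14 and Socs3 in 9 of the 15 alternatives, Osmr in 3 and Stat3 in 2. The cause of these moves was not tested, beyond the smaller number of tumours in the fits that leave 1 out. By CPM in place of CPM per kilobase, Osmr, Il6ra, Socs3 and Cebpd changed rank. No paired analysis was possible because the columns carry no replicate number. Il6, Il11 and Osm rest on 6 to 89 reads per library; whether depth or the spread between tumours sets the width of their intervals was not tested.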
